A study of Mus musculus with 12 samples.

Results

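Interferon-stimulated genes are genes whose transcription is raised by interferons. Here they are 38 named mouse symbols looked up in a table of read counts for 23479 gene symbols in 12 prostate tumours. All 38 were in the table, and all 38 were among the 15082 genes that passed the filter on low counts and were tested. The symbols are those of a list of known interferon targets, drawn up with earlier results of these data known. They were grouped by role into 4 transcription factors, 9 GTPases of the Gbp and Irg families, 4 RNA and DNA sensors, and 21 other targets of the type I interferon response. No member passed the test at an adjusted p under 0.05 in any of 8 comparisons between treatments. Against the control group the median member was higher with each treatment, but 36 of the 38 genes were at their lowest in a single control tumour, and without it these medians, as log2 fold changes, were -0.15 (anti-CSF1), -0.04 (Lupron) and 0.11 (the combination).

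The tumours grew in the prostates of C57BL/6J mice injected with 100000 PTE-82 cells, a TMPRSS2-ERG-expressing mouse prostate cancer line, in 40 µl of PBS and Matrigel. Each of the 4 groups held 3 tumours, all taken on day 17 after perfusion with PBS. The IgG group received a control antibody. The anti-CSF1 group received an antibody to CSF1, the growth factor on which most tissue macrophages depend, on days 9 and 14. The Lupron group received 0.6 mg per mouse of Lupron (leuprolide, which shuts down testicular androgen production) on day 4. The Lupron/anti-CSF1 group received both agents on those days. The days of IgG dosing, and whether the Lupron mice received it, were details not given in the sources used here. All mice carried the same injected line, so it is 1 model of prostate cancer in 1 inbred strain. Nothing in the labels ties the replicates to more than separate samples, so the p-values measure the spread between these samples. In bulk tumour RNA, fewer cells of a type and less RNA per cell cannot be told apart.

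Type I interferons signal through the receptor chains Ifnar1 and Ifnar2 to a complex that includes Stat2 and Irf9. It assembles on a promoter element called the interferon-stimulated response element, or ISRE. Interferon gamma signals through Ifngr1 and Ifngr2 to the gamma-activated site, or GAS, in promoters, and it induces the guanylate-binding proteins (Gbp) and immunity-related GTPases (Irg) strongly. In tumours both responses can occur in cancer cells, stroma and leukocytes, and macrophages and dendritic cells are known producers of type I interferon and carriers of the nucleic acid receptors that start it.

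The promoters of the members are shown first because these elements are the sequence feature by which interferon acts on them. RefSeq promoters on GRCm38.p6 were matched by symbol for 28 of the 38 members, and the 250 bases before each start were searched on both strands. The ISRE was searched as GAAA, any 2 bases, GAAA, and the GAS as TTCNNNGAA. An ISRE word was found in 16 of 28 members (57.1%), against 3.46% of all 27025 genes with a window. A GAS word was found in 8 of 28 members (28.6%), against 8.13% of all genes. All 7 GTPases with a window held an ISRE word, and 4 of them a GAS word. Of the 15 other type I targets with a window, 8 held an ISRE word and 3 a GAS word. A match is a string of letters and was not tested for binding. Members with overlapping or repeated ISRE words (Isg15, Ifit3), a single one (Rsad2), both kinds of word (Gbp7, Igtp), or a GAS word and no ISRE word (Irf1) are printed below for the 150 bases before the start, 5′ to 3′ on the gene's strand, with the letters of the words in capitals. The words of the printed Ifit3 window include one truncated at its left end, which began 156 bases before the start.
Isg15, chr4:156200819-156200968, minus strand: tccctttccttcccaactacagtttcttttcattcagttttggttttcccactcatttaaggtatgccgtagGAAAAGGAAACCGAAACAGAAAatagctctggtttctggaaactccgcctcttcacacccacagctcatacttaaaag
Ifit3, chr19:34583379-34583528, plus strand: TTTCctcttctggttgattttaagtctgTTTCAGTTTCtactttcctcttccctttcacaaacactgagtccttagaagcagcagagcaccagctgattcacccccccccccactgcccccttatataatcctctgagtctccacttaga
Rsad2, chr12:26456453-26456602, minus strand: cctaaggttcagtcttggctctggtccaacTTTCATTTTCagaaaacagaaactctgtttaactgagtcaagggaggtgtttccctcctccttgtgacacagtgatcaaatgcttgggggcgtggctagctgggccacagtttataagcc
Gbp7, chr3:142530186-142530335, plus strand: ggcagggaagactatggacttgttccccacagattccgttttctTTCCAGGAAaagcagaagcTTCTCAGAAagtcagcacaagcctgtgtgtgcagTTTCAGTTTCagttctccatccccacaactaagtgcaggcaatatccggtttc
Igtp, chr11:58199406-58199555, plus strand: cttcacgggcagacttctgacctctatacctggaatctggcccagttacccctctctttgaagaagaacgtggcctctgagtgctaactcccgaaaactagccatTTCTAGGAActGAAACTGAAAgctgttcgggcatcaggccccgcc
Irf1, chr11:53769864-53770013, plus strand: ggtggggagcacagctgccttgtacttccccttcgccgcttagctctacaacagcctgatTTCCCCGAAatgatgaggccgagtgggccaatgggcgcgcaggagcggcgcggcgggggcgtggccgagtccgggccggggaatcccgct

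Isg15, a ubiquitin-like protein joined to other proteins during infection, had 3 overlapping ISRE words that began 78, 72 and 66 bases before the start. In Igtp, an Irg GTPase that guards against vacuolar parasites, a GAS word began 45 bases before the start and an ISRE word 34 bases before it. Gbp7, a guanylate-binding protein, had an ISRE word 53 bases before the start and GAS words at 106 and 87 bases. Irf1, the factor through which much of the interferon gamma response is relayed, had a GAS word 90 bases before the start and no ISRE word in this window. Rsad2, which encodes the antiviral enzyme viperin, had 1 ISRE word, 120 bases before the start. In the gene models used (GENCODE M21, GRCm38) several members sit side by side: Gbp2, Gbp3, Gbp5 and Gbp7 on chromosome 3, Ifit1, Ifit2 and Ifit3 on chromosome 19, Oas1a, Oas2 and Oas3 as well as Oasl1 and Oasl2 on chromosome 5, Mx1 and Mx2 on chromosome 16, and Rsad2 next to Cmpk2 on chromosome 12. Irgm2 and Igtp overlap there on chromosome 11, and the Ifit, Oas, Oasl and Gbp families hold close copies, so counts of single members of these families are uncertain.

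Libraries held from 20584363 to 29965355 counts, with RNA integrity numbers from 8.2 to 9.8, and no pair among 66 looked like 1 library deposited as 2. The 38 members together took from 0.108% to 0.531% of a library's counts, the lowest share in IgG replicate 3. That tumour stood apart in other ways. Its summed level of smooth muscle markers, as the mean log2(CPM + 1) over 7 genes, was 10.02, against 4.90 to 8.23 elsewhere. Its luminal and tumour epithelium markers stood at 7.32, against 4.39 to 6.14. Proliferation markers in IgG replicate 3 were at 3.43, against 6.58 to 7.42, and its NK, T cell, endothelial and fibroblast lists were the lowest of the 12. The fibroblast list, at 7.11, was close to the 7.15 of Lupron replicate 2. Single members went the other way: Dcn of the fibroblast list (1597 CPM) and Tek of the endothelial list (16.9 CPM) were at their highest in IgG replicate 3. Mki67, a marker of dividing cells, was at 46.6 CPM there and at 329 CPM or more in every other tumour. Of the prostate secretion genes, Sbp was at 45170 CPM and Msmb at 1207 CPM in IgG replicate 3. Elsewhere they reached at most 1.53 and 89.7 CPM. Pbsn (1538 CPM) and Tgm4 (5.41 CPM) in IgG replicate 3 lay within the range of the other tumours. Values without this tumour are therefore given beside the results that it moved most, and the part of its tissue makeup in the members' levels was not tested.

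Across tumours, IgG replicate 3 had the lowest level of nearly all members. The mean member level, as log2(CPM + 1), was 6.01, 6.51 and 4.30 in the IgG tumours. It was 6.27, 5.78 and 6.20 with anti-CSF1, 6.30, 5.88 and 6.43 with Lupron, and 6.56, 5.98 and 6.46 with both. Apart from IgG replicate 3, the 11 tumours of all groups thus lay between 5.78 and 6.56, and the groups overlapped. Replicate 3 of IgG was the lowest tumour for 36 of 38 members, the exceptions being Gbp5 and Parp14, which were lowest in anti-CSF1 replicate 2. The highest tumour was Lupron/anti-CSF1 replicate 1 for 15 members, IgG replicate 2 for 12 and Lupron/anti-CSF1 replicate 3 for 6. The IgG group therefore held the low extreme of nearly every member and the high extreme of many. The ratio of the highest to the lowest tumour had a median of 5.40 over the 38 members, from 2.02 for Stat2 to 23.7 for Isg15. Without IgG replicate 3 the median ratio was 2.32, from 1.39 to 4.28.

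**Figure D1:**
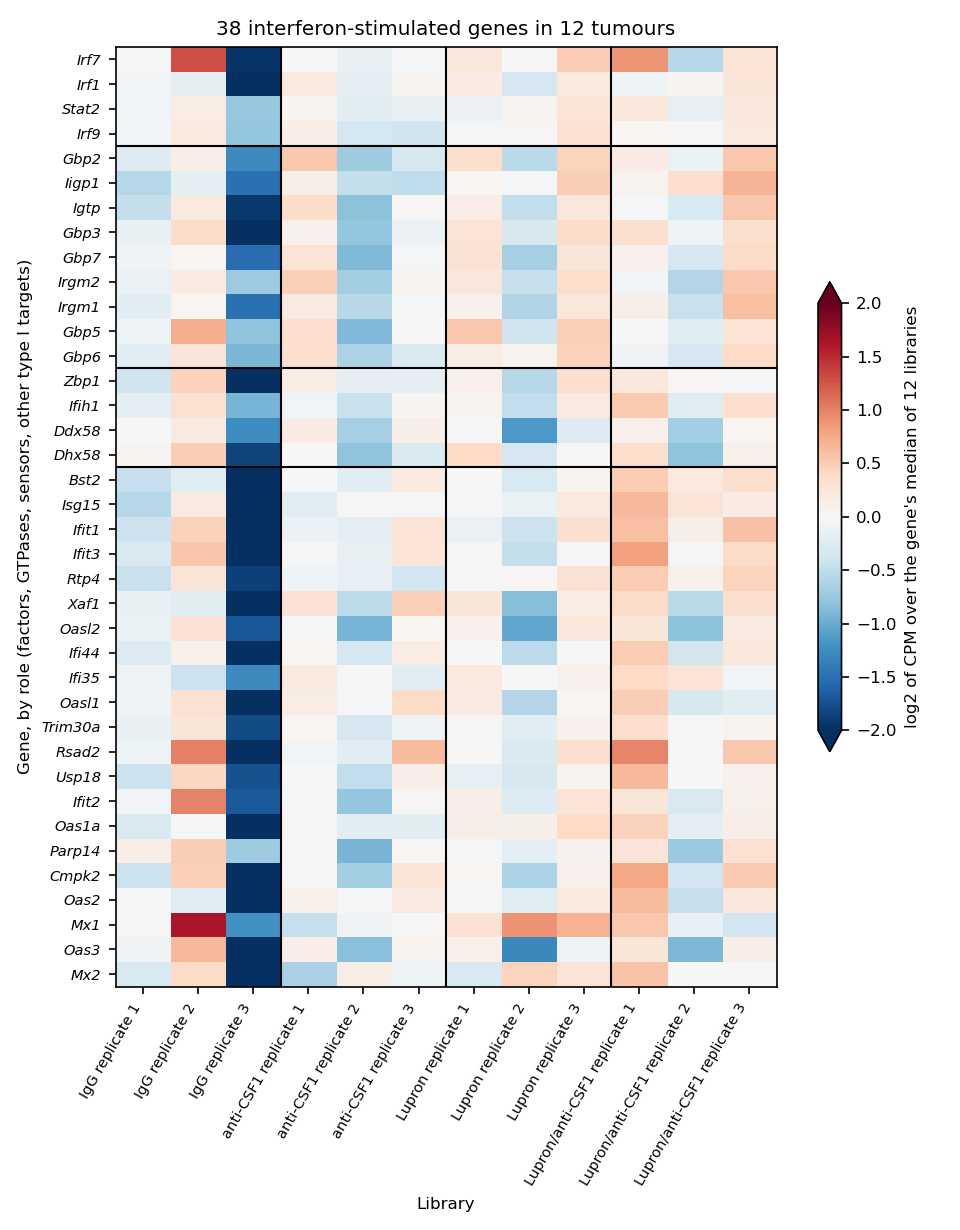
Levels of the 38 interferon-stimulated genes (rows, by role) in the 12 tumours (columns, by group), as the log2 of CPM over each gene's median of 12 libraries. The column of IgG replicate 3 is blue for nearly all genes, being the lowest library for 36 of 38, and IgG replicate 2 is red for many of them.

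The low level in IgG replicate 3 was uneven between roles. The GTPases stood there at 5.03 as mean log2(CPM + 1), against 5.67 to 6.84 in the other tumours, and the other type I targets at 3.79, against 5.75 to 6.58. The difference of the 2 lists, type I targets minus GTPases, was -1.25 in this tumour and from -0.62 to 0.14 in the other 11. Oasl1, an inhibitor of Irf7 translation, was at 4.24 CPM in it and at 36.7 CPM or more elsewhere, while Stat2 was at 44.7 CPM against 65.0 CPM or more. Anti-CSF1 replicate 2 and Lupron replicate 2 were the next lowest tumours, each the lowest of the remaining 11 for 13 members. Lupron replicate 2 also had the highest level of seminal vesicle genes, 13.97 as mean log2(CPM + 1), and anti-CSF1 replicate 2 stood at 11.25. Next after Lupron replicate 2 were anti-CSF1 replicate 1 (12.85), Lupron/anti-CSF1 replicate 3 (12.20) and IgG replicate 2 (12.00). The mean member levels of these were 6.27, 6.46 and 6.51. Whether seminal vesicle RNA bears on the member levels was not tested.

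Compared per length of exon, the most abundant members were small type I targets. Bst2, the membrane tether that holds budding viruses at the cell surface, averaged 482 CPM per kb of exon over the 12 tumours, and Isg15 averaged 339 CPM per kb. The next was Gbp2 at 50.3 CPM per kb, followed by Ifit1 at 45.9 and Iigp1 at 45.3. The least abundant was Mx2, a dynamin-like antiviral GTPase, at 2.19 CPM per kb. Between Gbp2, Ifit1 and Iigp1 the differences were smaller than the spread of each gene between tumours.

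Among the transcription factors, Irf7, the master factor of interferon alpha production, varied most. It stood at 113, 275 and 28.7 CPM with IgG, 111, 101 and 110 CPM with anti-CSF1, 131, 111 and 160 CPM with Lupron, and 206, 75.6 and 136 CPM with both. The highest and the lowest of the 12 values both came from the IgG group, and all 4 groups overlapped. Averaged over Lupron, its log2 fold change with the antibody was -0.16 ± 0.43 (SE; edgeR adjusted p = 0.848). It was -0.40 without IgG replicate 3 and 0.33 without IgG replicate 2. Irf1 stood at 111, 100 and 29.0 CPM with IgG, 131, 101 and 120 CPM with anti-CSF1, 129, 90.7 and 131 CPM with Lupron, and 108, 119 and 136 CPM with both. Apart from IgG replicate 3, its tumours lay between 90.7 and 136 CPM. Its log2 fold change with the antibody, averaged over Lupron, of 0.30 ± 0.28 (adjusted p = 0.552) was 0.10 without that tumour. Below, antibody-averaged values are effects of the antibody averaged over Lupron. Lupron-averaged values are effects of Lupron averaged over the antibody.

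Stat2 and Irf9, which belong to the ISRE-binding complex, had the lowest ratios of highest to lowest tumour among the 4 factors over all 12 tumours, while without IgG replicate 3 that of Irf9 was above that of Irf1. Stat2 stood at 72.7, 83.1 and 44.7 CPM with IgG, 78.1, 65.0 and 68.2 CPM with anti-CSF1, 69.8, 79.5 and 90.1 CPM with Lupron, and 86.9, 67.2 and 87.5 CPM with both. Irf9 stood at 45.5, 54.3 and 27.9 CPM with IgG, 52.2, 37.2 and 36.1 CPM with anti-CSF1, 46.8, 48.1 and 58.3 CPM with Lupron, and 48.9, 46.8 and 54.6 CPM with both. For both genes the groups overlapped. Averaged over the antibody, the log2 fold change with Lupron was 0.22 ± 0.16 for Stat2 (adjusted p = 0.591) and 0.26 ± 0.17 for Irf9 (adjusted p = 0.571). They were 0.11 and 0.15 without IgG replicate 3.

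Of the 9 GTPases, Iigp1, an Irg protein that attacks the vacuoles of intracellular parasites, had the smallest unadjusted p of any member with Lupron. It stood at 182, 236 and 95.6 CPM with IgG, 294, 195 and 190 CPM with anti-CSF1, 278, 262 and 381 CPM with Lupron, and 283, 339 and 432 CPM with both. All 6 tumours with Lupron lay above the 3 IgG tumours, while anti-CSF1 replicate 1 lay within the range of the Lupron tumours. Averaged over the antibody, its log2 fold change with Lupron was 0.74 ± 0.24 (95% interval 0.22 to 1.26, unadjusted p = 0.00926), and its adjusted p was 0.525. It was 0.60 without IgG replicate 3, and from 0.60 to 0.89 when each library was left out in turn. Against IgG it was 0.84 ± 0.33 with Lupron alone (adjusted p = 0.284) and 1.04 ± 0.33 with both agents (adjusted p = 0.12). Without IgG replicate 3 these were 0.56 and 0.75 (adjusted p = 0.8 and 0.265). DESeq2 gave an adjusted p of 0.0315 for both agents against IgG in all libraries.

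The other GTPases did not separate the groups. Gbp2, a guanylate-binding protein that coats pathogen vacuoles, stood at 106, 138 and 52.2 CPM with IgG, 183, 77.2 and 101 CPM with anti-CSF1, 162, 87.0 and 172 CPM with Lupron, and 141, 116 and 183 CPM with both. Irgm1, a regulator of the other Irg proteins, stood at 63.0, 76.3 and 26.4 CPM with IgG, 83.7, 50.4 and 71.7 CPM with anti-CSF1, 78.7, 48.5 and 86.2 CPM with Lupron, and 80.1, 54.4 and 112 CPM with both. In each of the 3 treated groups replicate 2 was the lowest tumour for both genes. Gbp2 had a Lupron-averaged log2 fold change of 0.39 ± 0.29 (adjusted p = 0.595), and Irgm1 an antibody-averaged one of 0.26 ± 0.28 (adjusted p = 0.611). These were 0.24 and 0.09 without IgG replicate 3. All 9 GTPases had positive Lupron-averaged estimates, with a median log2 fold change of 0.31, and all 9 also without IgG replicate 3, where the median was 0.15. The 8 T cell markers tested also had positive Lupron-averaged estimates from all 12 libraries, with a median of 0.42 and 0 called. So did 7 of 8 NK and cytotoxic markers (median 0.49), 7 of 8 proliferation markers (0.21) and 7 of 7 seminal vesicle genes (0.96). The medians of the macrophage, endothelial, fibroblast, smooth muscle and luminal epithelium lists were negative. IgG replicate 3 had the lowest T cell level, and no T cell estimate without it is given here. The part of these cells in the GTPase levels was not tested. With the antibody the GTPases' median was 0.14, and -0.02 without IgG replicate 3.

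The sensors recognise viral or self nucleic acids in the cytosol. Ifih1, which encodes the long double-stranded RNA sensor MDA5, stood at 130, 183 and 78.0 CPM with IgG, 143, 109 and 153 CPM with anti-CSF1, 154, 105 and 168 CPM with Lupron, and 212, 125 and 186 CPM with both. Ddx58, which encodes the RNA sensor RIG-I, stood at 99.8, 112 and 41.9 CPM with IgG, 111, 62.9 and 108 CPM with anti-CSF1, 98.6, 44.9 and 82.9 CPM with Lupron, and 107, 61.8 and 102 CPM with both. For Ddx58, replicate 2 of each treated group lay well below its partners. Dhx58, which encodes their regulator LGP2, stood at 21.2, 28.6 and 5.66 CPM with IgG, 20.2, 11.7 and 16.7 CPM with anti-CSF1, 26.9, 16.2 and 20.5 CPM with Lupron, and 26.0, 11.6 and 21.8 CPM with both. All groups overlapped for these 3 genes. The antibody-averaged log2 fold change was 0.17 ± 0.23 for Ifih1 (adjusted p = 0.681) and 0.20 ± 0.29 for Ddx58 (adjusted p = 0.702), and 0.04 for each without IgG replicate 3. The Lupron-averaged one was 0.25 ± 0.23 for Ifih1 (adjusted p = 0.657) and 0.25 ± 0.35 for Dhx58 (adjusted p = 0.780). Without that tumour these were 0.12 and 0.03. Zbp1, a sensor of left-handed nucleic acids that can trigger cell death, ranged from 15.0 CPM in IgG replicate 3 to 170 CPM in IgG replicate 2, with 82.9 to 154 CPM in the other 10 tumours.

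Among the 21 other type I targets, Isg15 and Bst2 reached their highest levels with both agents. Isg15 stood at 178, 298 and 17.4 CPM with IgG, 226, 267 and 261 CPM with anti-CSF1, 261, 241 and 302 CPM with Lupron, and 412, 314 and 296 CPM with both. Bst2 stood at 334, 390 and 48.1 CPM with IgG, 455, 393 and 524 CPM with anti-CSF1, 463, 371 and 479 CPM with Lupron, and 654, 527 and 583 CPM with both. For Bst2 the 3 tumours given both agents lay above the other 9, while for Isg15 IgG replicate 2 and Lupron replicate 3 reached into their range. Against IgG, the log2 fold change with both agents was 1.05 ± 0.66 for Isg15 (adjusted p = 0.32) and 1.19 ± 0.55 for Bst2 (adjusted p = 0.193). Without IgG replicate 3 that of Isg15 was 0.52 ± 0.26 (adjusted p = 0.373) and that of Bst2 0.70 ± 0.23 (adjusted p = 0.201).

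Mx1, an antiviral GTPase of which C57BL/6 mice carry a defective allele, was the member with the lowest antibody-averaged estimate. It stood at 12.7, 39.3 and 5.48 CPM with IgG, 9.18, 12.1 and 12.7 CPM with anti-CSF1, 15.6, 23.7 and 20.6 CPM with Lupron, and 18.4, 11.4 and 9.78 CPM with both. The IgG group spanned the range of all the others. Its antibody-averaged log2 fold change was -0.68 ± 0.39 (95% interval -1.54 to 0.19, adjusted p = 0.365). It was -0.90 ± 0.28 without IgG replicate 3 (unadjusted p = 0.00826, adjusted p = 0.141) and -0.14 without IgG replicate 2. The size of this estimate thus turned on which IgG tumours were kept.

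Ifi35, an interferon-induced leucine zipper protein, had an unadjusted p under 0.05 with Lupron. It stood at 35.4, 28.1 and 15.7 CPM with IgG, 43.5, 37.6 and 32.5 CPM with anti-CSF1, 43.5, 38.1 and 40.3 CPM with Lupron, and 50.0, 45.2 and 36.4 CPM with both. The 6 tumours with Lupron lay above the 3 IgG tumours and within or above the range of the anti-CSF1 tumours. Its log2 fold change was 0.42 ± 0.19 with Lupron (unadjusted p = 0.0496, adjusted p = 0.525) and 0.32 ± 0.19 with the antibody (adjusted p = 0.374). Both were lower without IgG replicate 3, at 0.28 and 0.18. Rtp4, a receptor transporter protein with antiviral activity, stood at 53.6, 86.9 and 20.1 CPM with IgG, 68.8, 65.2 and 56.2 CPM with anti-CSF1, 72.1, 73.9 and 89.6 CPM with Lupron, and 104, 77.5 and 99.3 CPM with both. The Rtp4 values with Lupron lay above those with anti-CSF1 alone and overlapped those with IgG. Its Lupron-averaged log2 fold change was 0.56 ± 0.28 (adjusted p = 0.525), and 0.36 ± 0.16 without IgG replicate 3 (adjusted p = 0.708). The remaining members of this role are the Ifit and Oas families, Oasl1, Oasl2, Mx2, Rsad2, Usp18, Ifi44, Cmpk2, Xaf1, Parp14 and Trim30a. Their antibody-averaged estimates lay between those of Mx1 and Bst2, and their Lupron-averaged ones between -0.03 for Oas3 and 0.56 for Oas1a.

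**Figure D2:**
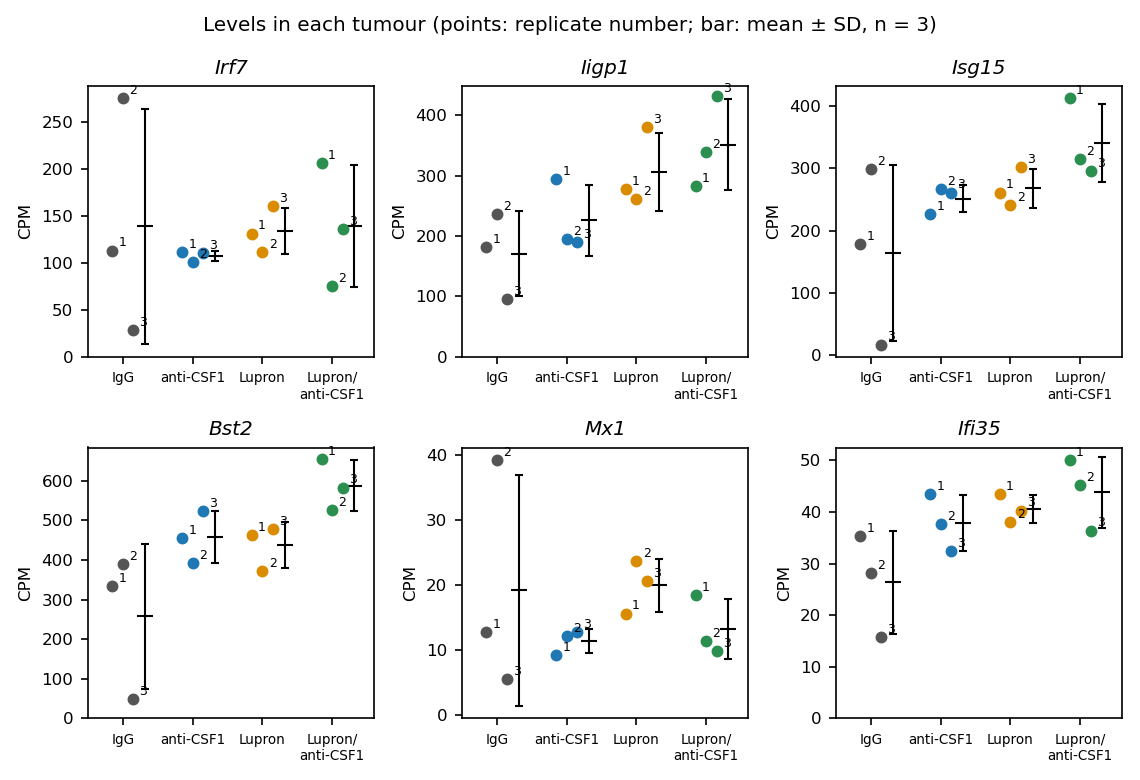
CPM of 6 interferon-stimulated genes in each tumour, by group, with the replicate number beside each point and the mean ± SD of 3 tumours as a bar. IgG replicate 3 is the lowest point for all 6 genes, and the Iigp1 values of all 6 Lupron-treated tumours lie above the IgG values.

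The first question is whether blocking CSF1 changed these genes. Most estimates were positive and small, and no member passed the test. Averaged over Lupron, 6 tumours with the antibody against 6 without, edgeR's quasi-likelihood test called 0 of 38 members, against 1.87% of all genes tested (282 of 15082, 270 of them lower). No member had an unadjusted p under 0.05, against 19.0% of all genes, and DESeq2 also called 0, against 9.03% of all genes it tested. Estimates were positive for 30 of 38 members, with a median log2 fold change of 0.20 beside 0.02 over all genes, and the highest was Bst2 at 0.63 ± 0.38 (0.38 ± 0.15 without IgG replicate 3). Without IgG replicate 3 they were positive for 20 of 38, with a median of 0.03. No member separated the 6 tumours from the 6 without overlap, against 2.39% of all genes. Anti-CSF1 against IgG alone also called 0 of 38, with a background of 0.00663%, and 0 at an unadjusted p under 0.05, against 22.8% of all genes. DESeq2 called 0 there too, against 11.9% of all genes it tested. Its median of 0.24 turned to -0.15 without IgG replicate 3, with 11 of 38 positive in place of 31.

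The question for Lupron was whether androgen suppression changed them. Nearly all estimates were positive, and again no member passed the test. Averaged over the antibody, 0 of 38 members were called by edgeR or DESeq2, beside 0% of all genes by edgeR and 0.0612% by DESeq2. Iigp1 and Ifi35 had an unadjusted p under 0.05, which is 2 of 38 members against 9.06% of all genes. Estimates were positive for 36 of 38, the exceptions being Ddx58 at -0.11 ± 0.29 and Oas3 at -0.03 ± 0.51 (-0.27 and -0.29 without IgG replicate 3). The median was 0.29 beside -0.02 over all genes, and without IgG replicate 3 it was 0.10 with 29 of 38 positive. No member separated the 6 from the 6, against 0.431% of all genes. Lupron against IgG alone called 0 of 38 by both tools, beside 0% of all genes by edgeR and 2.8% by DESeq2. In it 2 members had an unadjusted p under 0.05, against 16.4% of all genes, and the member median was 0.32. That median was -0.04 without IgG replicate 3. In this comparison Iigp1, Oas1a and Ifi35 were higher without overlap between the groups of 3, which is 3 of 38 against 11.1% of all genes. Oas1a makes the short oligoadenylates that activate RNase L.

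With both agents the median member estimate against IgG was the highest of the 3 treatments, and again no member passed the edgeR test. EdgeR's test called 0 of 38 members, beside 0.00663% of all genes, while 2 had an unadjusted p under 0.05, against 26.0% of all genes. DESeq2 called 1, Iigp1, against 13.1% of all genes it tested. The median log2 fold change was 0.51, with 34 of 38 positive, and 0.11 with 26 of 38 positive without IgG replicate 3. Iigp1, Ifi35 and Bst2 were higher without overlap, which is 3 of 38 against 15.1% of all genes. The group given both agents had the highest mean CPM of the 4 groups for 26 members, and IgG the lowest for 28. Without IgG replicate 3 the first count was 22, and anti-CSF1 alone had the lowest mean for 20. These 3 comparisons share their IgG tumours, so their common low tumour enters each of them.

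Comparisons that leave out the IgG group also called no member. Both agents against Lupron alone gave a median of 0.11, with 30 of 38 positive, and both against anti-CSF1 alone a median of 0.26, with 35 of 38 positive. In either case 0 of 38 members were called by edgeR or DESeq2, beside 0% of all genes by edgeR. None had an unadjusted p under 0.05, against 4.26% of all genes in the first and 1.95% in the second. DESeq2 called 1.55% of all genes in the first and 0.0314% in the second. The first median was -0.004 without Lupron replicate 2, and the second 0.12 without anti-CSF1 replicate 2. The test of whether the antibody acted differently with and without Lupron called 0 of 38 by both tools, beside 0% of all genes by edgeR and 1.3% by DESeq2. No member had an unadjusted p under 0.05 in it, against 6.77% of all genes. The member median of this test, -0.06, was 0.28 without IgG replicate 3 and -0.54 without IgG replicate 2. Its sign changed in 4 of the 12 fits that each left out 1 library.

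**Figure D3:**
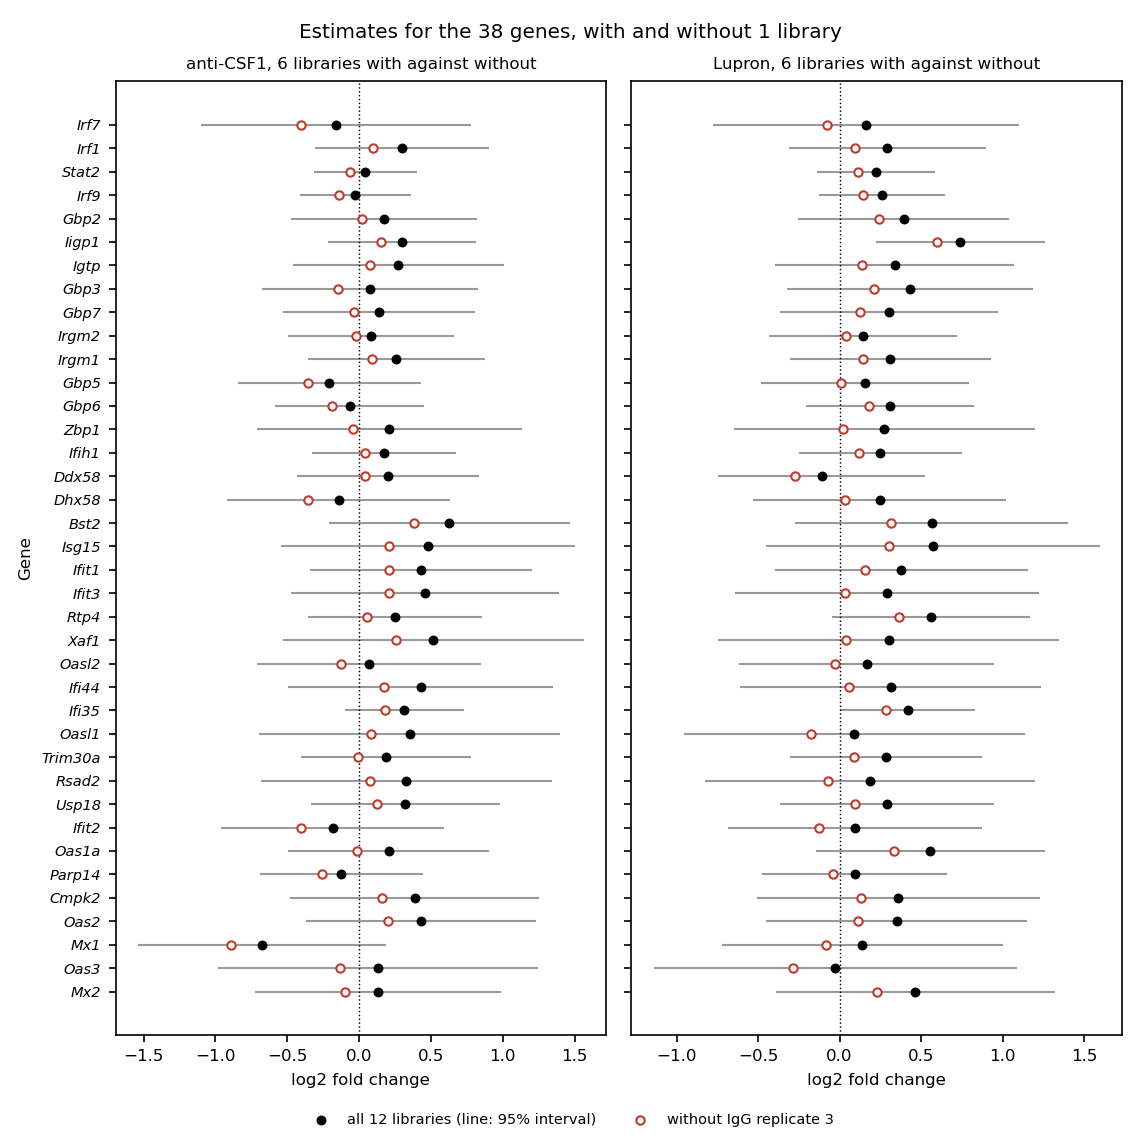
Log2 fold changes of the 38 members for the antibody (left) and Lupron (right), with their 95% intervals from all 12 libraries (black) and the estimates without IgG replicate 3 (red circles). Leaving out that tumour moves all 38 estimates to the left in both panels, and the Lupron interval of Iigp1 lies above 0.

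Upstream of the members, the type I interferon genes looked up were close to absent from the counts. The interferon alpha genes among them were Ifna1, Ifna2, Ifna4, Ifna5 and Ifna6 only. Of 11 interferon ligand genes, 8 had 0 counts in all 12 libraries, which allows up to 3 counts over all of them (0.00984 CPM, counting error only). Ifnl3 had 1 count, and Ifnb1 (interferon beta) had 37 counts in 6 libraries. How reads matching several genes were counted was not given in the sources used here, so the bound does not cover reads lost in that way. Ifng (interferon gamma) had 217 counts, with 5 to 13 counts in the IgG tumours, 3 to 25 with anti-CSF1, 19 to 43 with Lupron and 10 to 35 with both. Its Lupron-averaged log2 fold change was 1.08 ± 0.57 (adjusted p = 0.525). Against IgG alone the log2 fold change of Ifng with Lupron was 1.59 ± 0.81 (adjusted p = 0.33), with 1.01 to 1.45 CPM in the Lupron tumours and 0.178 to 0.543 CPM in the IgG tumours, so these groups of 3 did not overlap. Over all genes, 11.1% were higher without overlap in this comparison. Without IgG replicate 3 the Ifng estimates were 0.91 averaged over the antibody (adjusted p = 0.718) and 1.24 against IgG alone (adjusted p = 0.8). The other ligands had too few counts to be tested. The receptor chains were present in every tumour, from 40.1 to 84.0 CPM for Ifnar1, 63.1 to 91.4 for Ifnar2, 64.0 to 126 for Ifngr1 and 45.9 to 69.5 for Ifngr2. All 6 values of Ifngr2 with the antibody, 45.9 to 51.4 CPM, lay below the 6 without, 56.9 to 69.5 CPM, with a log2 fold change of -0.37 ± 0.10 (adjusted p = 0.0857). Over all genes, 2.39% separated these 6 tumours from the 6 without overlap.

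Some of the genes that sense nucleic acids or relay the signal were lower with the antibody. Of 19 receptor and signalling genes, 3 were called lower in the antibody-averaged comparison and 0 higher. Of 15 upstream sensing genes, 3 were called lower and 0 higher. Estimates were positive for 6 of the 19 genes and for 5 of the 15. The highest among the 15 was 0.84 (0.63 without IgG replicate 3). Over all genes tested, 1.79% were called lower. Of 41 further interferon-induced genes, 0 were called in either direction, 1 had an unadjusted p under 0.05, and their median was 0.11 with 27 positive. That median was -0.10 without IgG replicate 3, with 16 positive. With Lupron 0 genes of these lists were called. Without IgG replicate 3 the counts called lower with the antibody were 3, 4 and 1, the added genes being Aim2 and Gbp8, and 2.9% of all genes were called lower.

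Tlr7, the endosomal receptor for single-stranded RNA, stood at 7.50, 23.2 and 6.55 CPM with IgG and 12.6, 10.8 and 12.7 CPM with Lupron. It stood at 3.57, 2.18 and 2.49 CPM with anti-CSF1 and 4.19, 1.71 and 1.86 CPM with both. All 6 tumours with the antibody lay below the 6 without, and Tlr7 fell by 2.19 ± 0.37 on the log2 scale (adjusted p = 0.0155). Tlr9, the receptor for unmethylated DNA, fell by 2.32 ± 0.50 (adjusted p = 0.0426), and Unc93b1, the chaperone that carries both receptors to endosomes, by 0.93 ± 0.19 (adjusted p = 0.0364). For Tlr9 the tumour that broke the separation was IgG replicate 3, at 5.63 CPM against 1.71 to 6.53 CPM with the antibody. Irf5, a factor downstream of these receptors, stood at 15.8, 17.8 and 8.58 CPM with IgG, 21.8, 13.4 and 18.4 CPM with Lupron, 8.06, 4.12 and 5.30 CPM with anti-CSF1, and 6.65, 4.16 and 5.03 CPM with both. It fell by 1.51 ± 0.26 without overlap (adjusted p = 0.0152). Ptpn6, the phosphatase SHP-1 of leukocytes, stood at 36.5, 55.9 and 27.2 CPM with IgG, 51.4, 40.8 and 41.0 CPM with Lupron, 20.5, 10.9 and 12.0 CPM with anti-CSF1, and 18.2, 10.4 and 17.3 CPM with both. It fell by 1.50 ± 0.24, also without overlap (adjusted p = 0.0124). Irf8, a factor of myeloid development, fell by 0.71 ± 0.16 (adjusted p = 0.0454).

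Leaving out single tumours ended some of these calls. Ptpn6 stayed called in 11 of 12 such fits and was lost without anti-CSF1 replicate 3 (adjusted p = 0.0523). Irf5 and Tlr7 each stayed in 8 of 12, with adjusted p up to 0.0619 and 0.0647, and were lost without replicate 2 or 3 of anti-CSF1 or of Lupron/anti-CSF1. Irf8, Tlr9 and Unc93b1 stayed in 2 of 12, those without IgG replicate 1 or 3, with adjusted p up to 0.148, 0.132 and 0.123 in the other fits. All 6 genes are also expressed by macrophages and related myeloid cells. Of 9 macrophage markers tested, 7 were called lower with the antibody, and their summed level was 3.91 to 4.69 in the 6 tumours with it and 5.28 to 6.76 in the 6 without, as mean log2(CPM + 1). Csf1r, the CSF1 receptor, ranged from 10.9 to 27.1 CPM with the antibody and from 51.9 to 148 CPM without it. The part of macrophage RNA in the lower sensing genes was not tested. Of 6 markers of plasmacytoid dendritic cells tested, 5 had negative antibody-averaged estimates and 0 were called. Their summed level was 0.67 to 1.07 with the antibody and 0.95 to 1.40 without it, and Siglech, one of them, was at 0.25 to 1.80 CPM in all 12 tumours. All 8 T cell markers tested had negative estimates, with a median of -0.83, and 1, Cd4, was called lower. The NK and cytotoxic list stood at 2.69 to 3.49 with the antibody and 0.90 to 2.97 without it.

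**Figure D4:**
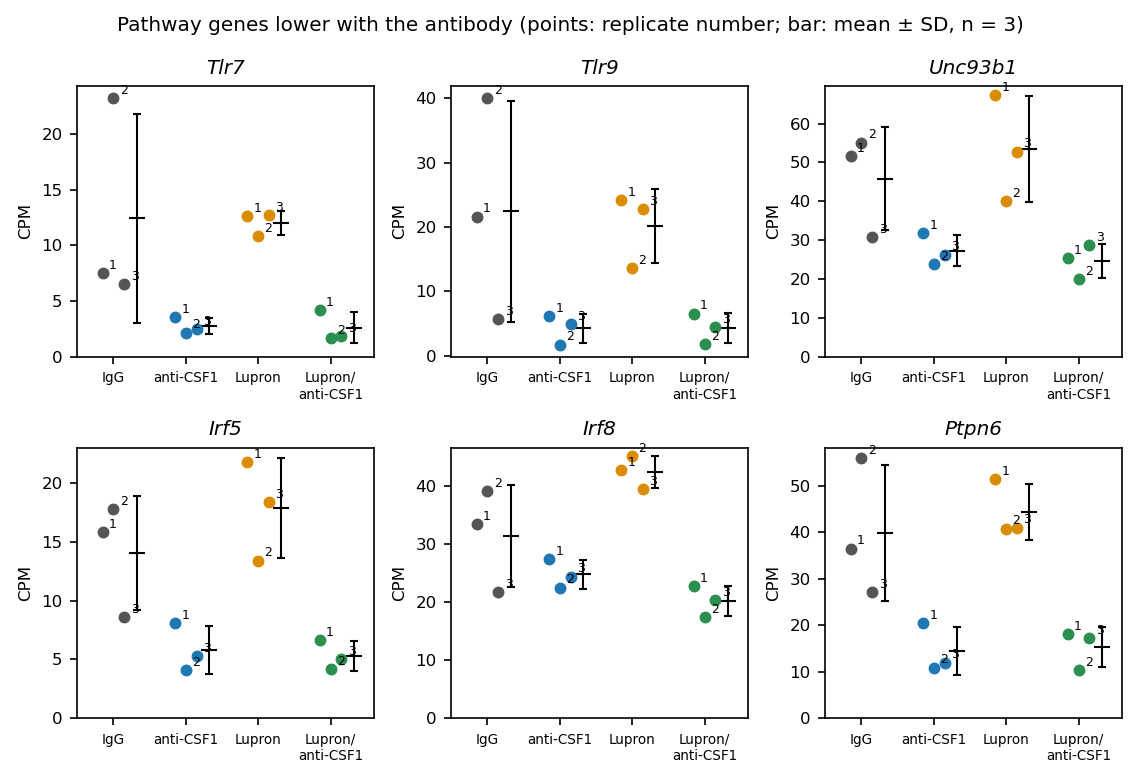
CPM of 6 nucleic acid sensing and signalling genes in each tumour, by group, with the replicate number beside each point and the mean ± SD of 3 tumours as a bar. For Tlr7, Irf5 and Ptpn6 all points with the antibody lie below all points without it, and for Tlr9, Unc93b1 and Irf8 the groups overlap.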

How the data were processed

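Bulk RNA-seq of 12 tumours was used. The deposited table holds raw read counts per gene symbol, whole numbers that the authors had not normalized. Per the submitters' processing notes, bcl2fastq 2.20.0.422, cutadapt 1.8.1 and HTSeq 0.6.1 were used with build mm10. The aligner, annotation and handling of strand were not given in the sources used here, so reads of overlapping or antisense genes cannot be told apart.

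Tests were run with edgeR 4.0.16 (R 4.3.3): its filter on low counts, TMM scaling, 1 mean per group over 12 libraries, and the robust quasi-likelihood F test, two-sided. Benjamini-Hochberg adjustment ran over all 15082 genes tested. The procedure was tested on simulated data. CPM are on TMM-scaled library sizes, and CPM per kb use the union of GENCODE M21 exons. Alternatives were RLE and upper-quartile scaling, DESeq2 1.42.0, 2 other filters, a replicate block and leaving out each library. Members shown in every tumour are the 2 per role with the smallest p for the antibody and for Lupron and the most abundant per role; Isg15 was added after its values were seen. The labels tie replicate numbers to no shared animal or batch, and numbers were not taken to pair tumours. Members and lists were chosen with earlier results of these data known.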

Additional observations from a re-analysis of the deposited data

How the results depend on the processing

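Over scaling, filtering, test and block, the count of members called differed from 0 in 1 comparison: DESeq2 called 1 for both agents against IgG, Iigp1 (log2 fold change 1.01 ± 0.34, adjusted p = 0.0315). Leaving out single libraries gave 0 to 1 in that comparison, the 1 being Ifi35 without IgG replicate 1 (1.01 ± 0.27, adjusted p = 0.0363) where 14.2% of all genes were called, and 0 in the other 7. Over those fits the member median ran from -0.15 to 0.67 for anti-CSF1 against IgG, from -0.04 to 0.82 for Lupron against IgG, from 0.11 to 0.93 for both against IgG, from -0.004 to 0.28 for both against Lupron, and from -0.54 to 0.28 for the interaction. That of Irf7 with the antibody ran from -0.40 to 0.33. The cause was not tested.

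With the replicate block, 0 members were called in all 8 comparisons, and the antibody-averaged count over all genes was 151 against 282. Irf8 (adjusted p = 0.0724), Tlr9 (0.0962) and Unc93b1 (0.0604) then missed the threshold. Of 18 same-numbered pairs, correlations ran from -0.304 to 0.513, with 8 over 0.1, and 6 of 12 libraries correlated best with their own number. Replicate 2 had the lowest mean member level in each treated group. The mean correlation was 0.0875 between same-numbered libraries and -0.0417 between differently numbered ones. Whether tumours of the same number deviated together was not tested. Without a filter, Irf8 (0.0619) and Tlr9 (0.0506) missed it too. DESeq2 called more of all genes: 1869 for anti-CSF1, 429 for Lupron and 2015 for both against IgG, 238 and 6 for both against Lupron and anti-CSF1, 1419 and 11 for the averaged antibody and Lupron effects, and 209 for the interaction. Leaving out single libraries, edgeR called from 65 to 1577 genes for the averaged antibody effect. The 95% intervals stayed wide, such as -0.21 to 1.47 for Bst2 with the antibody.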

Other observations

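Other interferon-induced genes outside the 38 gave further values. Psmb8, a subunit of the immunoproteasome that trims antigens for MHC class I, stood at 198, 184 and 39.7 CPM with IgG, 245, 256 and 216 CPM with anti-CSF1, 290, 317 and 291 CPM with Lupron, and 236, 322 and 276 CPM with both. All treated tumours lay above the IgG tumours. Over all genes, 11.1% were higher without overlap with Lupron against IgG and 15.1% with both agents against IgG. The Lupron-averaged log2 fold change of Psmb8 was 0.65 ± 0.31 (edgeR adjusted p = 0.525), and 0.43 ± 0.13 without IgG replicate 3 (unadjusted p = 0.00782, adjusted p = 0.708). Psmb9, its partner subunit, gave 0.62 ± 0.26 (adjusted p = 0.525), and 0.43 ± 0.15 without that tumour (adjusted p = 0.708), so neither passed the test.

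Gbp8 and Aim2 were called lower with the antibody when IgG replicate 3 was left out. Gbp8, a further guanylate-binding protein, stood at 7.84, 7.30 and 3.06 CPM with IgG, 7.62, 4.27 and 3.80 CPM with anti-CSF1, 9.74, 18.5 and 11.1 CPM with Lupron, and 2.5, 3.31 and 1.76 CPM with both. Its values with both agents lay below all 3 with Lupron alone. Its antibody-averaged log2 fold change was -1.29 ± 0.32 in all 12 libraries (adjusted p = 0.0729) and -1.46 ± 0.27 without IgG replicate 3 (adjusted p = 0.0106). For Aim2, a cytosolic DNA sensor that assembles an inflammasome, it was -1.13 ± 0.31 (adjusted p = 0.0996) and -1.33 ± 0.19 (adjusted p = 0.00185). Its 6 values with the antibody, 6.29 to 9.01 CPM, were below the 6 without, 13.7 to 24.2 CPM, apart from IgG replicate 3 at 5.06 CPM.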
